A study of Mus musculus with 1536 samples.

Results

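The cells described here are lymphatic endothelial cells (LECs) of the nasopharyngeal mucosa in which *Stab2*, the gene of the hyaluronan and scavenger receptor stabilin-2, was high. They were chosen by measured values in the matrix of adult cells. A cell was taken if its *Stab2* value was above 1 and its values of *Fndc1* and *Cldn11* were each at or under 1, where a value is the natural log of 1 plus reads per 10000. *Fndc1* is high in another group of capillary LECs and *Cldn11* marks valve LECs. By this rule 27.6% of the adult cells (95% exact interval 24.6 to 30.7) were Stab2-high, and the remaining 610 adult cells (72.4%) served as the comparison. Intervals of shares here are Clopper–Pearson intervals and cover counting error only.

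The cells came from the nasopharynx of untreated C57BL/6 mice of both sexes, aged 10–12 weeks. Tissue of 30 mice was pooled, CD31+PDPN+ cells were sorted into wells, and each well was sequenced by Smart-seq3, a plate method that makes a library from full-length cDNA. Both groups of cells share this source and were separated only by the genes of the rule. Neither mouse nor plate is given in the labels, so all adult cells are 1 sample. No test was made, and standard deviations (SD) and intervals describe these cells alone.

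Lymphatic capillaries are the blind-ended vessels that take up fluid, molecules and leukocytes from tissue, and precollecting and collecting vessels carry lymph onward. *Prox1*, *Flt4* and *Pdpn* are genes of LEC identity, and *Lyve1*, a hyaluronan receptor, is the usual marker of capillaries. Stabilin-2 binds hyaluronan and other ligands and carries them into the cell for breakdown. Pentraxin 3 (*Ptx3*) is a secreted pattern recognition protein that also binds within hyaluronan matrix.

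The *Stab2* values of the adult cells lay on both sides of the threshold. At least 1 *Stab2* read was found in 57.8% of all adult cells, and a value above 1 in 31.2%. Of the latter, 31 cells were left out by the other conditions. These comprised 11 with *Fndc1* above 1 and 22 with *Cldn11* above 1, of which 2 had both. Among Stab2-high cells the *Stab2* value lay between 1.0 and 3.86, with a median of 2.20. The 5 members nearest to the threshold had values from 1.0 to 1.04. The 5 cells nearest below it, with the other conditions met, had values from 0.954 to 0.998. Among cells meeting those conditions, 36 had a *Stab2* value above 0.5 and up to 1, 46 from there to 1.5 and 53 from there to 2.

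Reads per cell were similar in both groups. They lay between 10966 and 2929976 (median 358024) in Stab2-high cells and between 7433 and 3524358 (median 350746) in the other cells. The median number of genes found was 4107.5 and 4206.5. Every value above 0 gave a whole number of reads within 0.01. To compare shares at equal depth, cells were thinned to 20000 reads, which left out 15 Stab2-high and 36 other cells with fewer. The mean value over a list of 69 immediate early and dissociation genes, which are known to respond when tissue is digested, had a median of 1.20 in Stab2-high cells and 1.24 in the other cells.

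Genes of LEC identity were present at like levels in Stab2-high and other cells. *Prox1*, the transcription factor of LEC fate, was found in 96.6% of Stab2-high cells, at a mean of 5.55 reads per 10000 against 5.42 in the other cells. *Flt4*, the receptor of VEGF-C, was found in 99.6% of them, at 14.3 against 12 reads per 10000. *Pdpn*, used in the sort, was found in 96.1%, at 4.90 against 4.11. The capillary genes *Reln*, which encodes a secreted glycoprotein, and *Ccl21a*, a chemokine that attracts dendritic cells, were likewise close to the other cells, at 12.5 against 10.6 and 2.60 against 2.01 reads per 10000.

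*Lyve1* did not follow *Stab2*. Its value in Stab2-high cells ran from 0 to 4.65 with a median of 1.32, and in the other cells from 0 to 4.64 with a median of 0.661. The means of 10.6 and 12.1 reads per 10000 were in the opposite order to these medians. *Lyve1* was above 1 in 54.3% of Stab2-high cells (95% interval 47.7 to 60.8) and in 46.1% of other cells (42.1 to 50.1). The other 4 of the 5 general capillary markers (*Reln*, *Ccl21a*, *Flt4* and *Pdpn*) were thus slightly higher by mean level, while *Lyve1* varied from absent to high among these cells.

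Markers of other cell types, except those of blood endothelium, were at or near 0, although several of the leading genes are also known outside lymphatics. *Ptprc*, the pan-leukocyte gene, had no read in any Stab2-high cell. This allows a share of about 1.29%, taken as 3 divided by the number of cells and not as an exact interval. *Tyrobp* and *C1qa*, genes of macrophages, were each found in 1 cell. The mural cell genes *Pdgfrb* and *Rgs5* were found in 3 and 1 cells, and *Des* in none. Of the 7 macrophage markers measured, no Stab2-high cell had 3 with reads, and the same held for the 8 mural, 5 fibroblast, 3 epithelial and 4 Schwann cell markers. The summed level of each of these lists had a median of 0 reads per 10000, with highest cells at 16.7 for macrophage, 7.75 for mural, 6.18 for fibroblast, 5.99 for epithelial and 22.8 for Schwann cell markers. The blood endothelial list was not at 0, with a median sum of 8.14 reads per 10000 in Stab2-high cells and 7.16 in the other cells. At least 3 of its 6 markers had reads in 80 Stab2-high cells (34.5%) and in 28.2% of other cells. At least 3 were above 1 in 19 cells of either group, the Stab2-high group being the smaller. The reads of this list came largely from *Emcn* and *Plvap*, while *Flt1*, *Vwf* and *Sele* were found in 5, 6 and 7 Stab2-high cells.

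A log2 ratio below is the log2 of mean reads per 10000 plus 1 in Stab2-high cells over the same in the other cells. Genes entered where reads were present in 30% or more of the cells on either side. Of 5797 such genes, 14 (0.242%) were at least 2-fold higher in Stab2-high cells and 34 (0.587%) at least 2-fold lower. Of the higher genes, *Gpx3*, *Selp*, *Exoc3l2* and *Rasa4* passed the 30% filter through the Stab2-high cells alone. Because the cells were chosen by their expression, these ratios describe the cells and are not independent evidence for a cell type. The median ratio over all 5797 genes was 0.02.

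The genes that went furthest with *Stab2* were *Gm525* and *Aqp1*. *Gm525* (chromosome 11 of GRCm38, 89073841 to 89093040, plus strand) is a protein-coding gene known by a provisional symbol. Its value ranged from 0 to 4.36 in Stab2-high cells with a median of 2.08, and from 0 to 3.89 in the other cells with a median of 0. The means were 10.8 and 1.21 reads per 10000, a log2 ratio of 2.42. *Aqp1* (chromosome 6, 55336432 to 55348555, plus strand) encodes the water channel aquaporin-1. It ranged from 0 to 5.98 with a median of 4.18 in Stab2-high cells, and from 0 to 5.79 with a median of 0.237 in the other cells. Its means were 73.7 and 13.1 reads per 10000, a log2 ratio of 2.41. For both genes the ranges of the groups overlapped almost wholly, while the bulk of cells lay apart. In thinned cells *Aqp1* was found in 94.9% of Stab2-high and 49.3% of other cells, and *Gm525* in 82.9% and 23.2%.

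Both genes were high together in most of the cells. *Aqp1* was above 3 and *Gm525* above 1 in 70.3% of Stab2-high cells (95% interval 63.9 to 76.1). The same was seen in 59 of 610 other cells (9.67%, 7.44 to 12.3). With a *Sema7a* read as a further condition, 65.5% of Stab2-high cells (59 to 71.6) and 41 other cells (6.72%, 4.87 to 9.01) remained. Of the 6 genes *Aqp1*, *Gm525*, *Thbs1*, *Sparc*, *Sema7a* and *Kcnj8*, all were above 1 in 48 Stab2-high cells (20.7%) and in 7 other cells (1.15%), and none was above 1 in 0.862% and 27.5%. These cutoffs and the set of 6 genes were chosen after the values had been seen.

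The windows of 250 bases before the RefSeq gene start (GRCm38.p6) are shown for *Stab2*, which chose the cells, for *Gm525*, which had the highest ratio, and for *Exoc3l2* and *Selp*, which held a searched motif. Capitals mark motif matches, and each is written 5′ to 3′ in the direction of transcription. The *Stab2* window lies at chr10:87007943-87008192 on the minus strand, and those of *Gm525* at chr11:89073591-89073840, *Exoc3l2* at chr7:19463037-19463286 and *Selp* at chr1:164115014-164115263 on the plus strand.
Stab2: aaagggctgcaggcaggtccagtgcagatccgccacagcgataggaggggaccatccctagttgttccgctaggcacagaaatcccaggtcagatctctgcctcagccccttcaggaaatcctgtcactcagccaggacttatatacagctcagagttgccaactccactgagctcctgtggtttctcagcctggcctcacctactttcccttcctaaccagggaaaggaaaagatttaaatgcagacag
Gm525: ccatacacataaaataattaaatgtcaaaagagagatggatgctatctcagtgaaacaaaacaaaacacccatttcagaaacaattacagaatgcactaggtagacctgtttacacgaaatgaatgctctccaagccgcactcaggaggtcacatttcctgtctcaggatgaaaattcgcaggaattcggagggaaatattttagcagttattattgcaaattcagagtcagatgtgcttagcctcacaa
Exoc3l2: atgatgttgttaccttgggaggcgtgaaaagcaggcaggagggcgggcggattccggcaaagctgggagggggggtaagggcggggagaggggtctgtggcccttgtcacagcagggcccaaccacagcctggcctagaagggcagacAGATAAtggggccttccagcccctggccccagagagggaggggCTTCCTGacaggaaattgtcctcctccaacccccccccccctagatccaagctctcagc
Selp: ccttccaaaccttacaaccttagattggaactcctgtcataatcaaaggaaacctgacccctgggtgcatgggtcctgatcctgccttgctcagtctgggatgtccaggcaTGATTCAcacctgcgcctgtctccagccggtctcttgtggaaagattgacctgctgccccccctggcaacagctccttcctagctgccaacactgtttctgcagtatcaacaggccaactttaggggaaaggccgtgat
On both strands, matches were sought for AP-1 (TGANTCA), a factor of immediate early response, for GATA factors (AGATAA) and for ETS factors (CAGGAAG), which are known in endothelium, for SOX factors (ACAAAG), and for the core promoter box of the TATA type (TATAAA). Windows were at hand for 13 of 15 genes, namely *Stab2* and the 14 genes past 2-fold without *Thbs1* and *Angpt2*. AP-1 was matched in *Selp* alone, and in 6.75% of 32851 promoters. GATA and ETS were each matched in *Exoc3l2* alone, against 9.99% and 10.8% of all promoters. TATA was matched in *Igfbp4* alone, against 12.4%, and SOX in none of the 13, against 16.5%. The *Stab2* and *Gm525* windows thus held none of these motifs. A match is a description and not a bound site.

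Genes of secreted and matrix proteins were among the highest. *Thbs1*, the gene of thrombospondin-1, had values up to 4.08 with a median of 1.86 in Stab2-high cells, and up to 3.57 with a median of 0.130 in the other cells. The mean was 9.65 against 1.87 reads per 10000, a log2 ratio of 1.89. *Sparc*, a matricellular protein that binds collagen, had a median of 2.56 against 0.579 and a mean of 15.4 against 3.51, a log2 ratio of 1.86. *Igfbp4*, which binds insulin-like growth factors, had a median of 2.52 against 1.45 and a log2 ratio of 1.24. *Igfbp4* was found in nearly all cells of both groups, so its difference was one of level. By contrast, *Gpx3*, a secreted glutathione peroxidase, was found in 41.4% against 23.6% of cells, with a median of 0 in both groups and a log2 ratio of 1.11.

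Among 25 measured genes on the list of matrix and matricellular proteins, *Thbs1* and *Sparc* were past 2-fold higher and *Tgfbi* past 2-fold lower (log2 ratio -1.31), with a list median of 0.05. *Fbln2*, a basement membrane protein, stood at 0.95, and *Tnc*, the gene of tenascin-C, at 0.80. *Fn1*, fibronectin, lay at -0.80. The list as a whole therefore did not lie in 1 direction.

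Of the genes for signalling and guidance, *Sema7a* and *Angpt2* were past 2-fold higher. *Sema7a*, a membrane-anchored semaphorin, was found in 83.6% of Stab2-high cells (95% interval 78.2 to 88.1) and in 36.9% of the others (33 to 40.9), and in 74.7% and 23% after thinning. Its value had a median of 1.20 and a highest of 3.09 against 0 and 2.90, with a log2 ratio of 1.53. *Angpt2*, a ligand of the Tie2 receptor, had a median of 2.18 against 0.930 and a log2 ratio of 1.19. It was found in 91.4% of Stab2-high and 79.2% of other cells. *Tek*, the gene of that receptor, lay the other way at -0.66. *Pgf* (0.93), a ligand of the VEGF family, and *Nrp2* (0.67), a co-receptor of *Flt4*, were higher but did not reach 2-fold. On the list of VEGF and Tie signalling 9 of 11 measured genes had a ratio above 0, 1 was past 2-fold, and the median was 0.23. Over all genes, 3257 of 5797 had a ratio above 0.

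*Kcnj8*, a pore subunit of ATP-sensitive potassium channels, was found in 56.9% (50.3 to 63.4) of Stab2-high and 33.1% (29.4 to 37) of other cells. It had a median of 0.175 against 0 and a log2 ratio of 1.19. With *Aqp1* it made up the 2 genes past 2-fold among 13 measured genes for water and ion channels, whose median was 0.08. The mechanosensitive channel genes *Piezo1* (0.02) and *Trpv4* (0.03) were near 0 on the same scale.

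Scavenger and endocytic receptor genes were each under 2-fold at the pseudocount of 1. *Stab2* itself is not among those measured, as it was part of the rule. *Mrc1*, the mannose receptor gene, was found in 67.2% (60.8 to 73.2) of Stab2-high and 32.1% (28.4 to 36) of other cells, with a median of 0.468 against 0. Its log2 ratio of 0.82 was the highest on the list of scavenger and endocytic receptors but under 2-fold. With a pseudocount of 0.1 in place of 1, which weighs low levels more, its ratio was 1.54 and thus past 2-fold. *Cd93* (0.55), *Stab1* (0.54), the paralog of *Stab2*, and *Cd36* (0.51), a fatty acid and thrombospondin receptor, followed. Of 12 measured genes on this list 7 were above 0 and none past 2-fold, with a median of 0.35 against 0.02 over all genes. Over all genes 3257 of 5797 were above 0, so the share above 0 on this list was near that of all genes. *Ctsd*, the lysosomal protease cathepsin D, was the 1 lysosomal gene of 19 past 2-fold. It was found in 98.7% of Stab2-high and 97.5% of other cells, with a median of 2.49 against 1.55 and a log2 ratio of 1.22. The median of the lysosomal list was 0.06, so *Ctsd* stood apart from it.

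Genes of hyaluronan binding and turnover had the highest list median, 0.46, but it rests on 5 measured genes of 18 in the matrix. The median is the ratio of *Ptx3* itself. *Ptx3* (found in 34.1% of Stab2-high and 14.1% of other cells) and *Itih5* passed the filter through the Stab2-high cells alone. Both are also among the markers chosen with earlier results of these data known. The rank of this list is therefore a description and no independent evidence. *Itih5*, a heavy chain of the inter-alpha-trypsin inhibitor family that attaches to hyaluronan, was found in 47.8% (41.3 to 54.5) of Stab2-high and 19.8% (16.7 to 23.2) of other cells, with a log2 ratio of 0.77. *Tmem2*, a cell surface hyaluronidase, stood at 0.47 and *Lyve1* at -0.18. None of the 5 passed 2-fold, but with a pseudocount of 0.1 *Itih5* (1.61) and *Ptx3* (1.48) did.

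Of genes for leukocyte adhesion and immune regulation, *Thbs1* and *Selp* were past 2-fold higher among 19 measured. *Selp* passed the filter through the Stab2-high cells alone, so its call is a description. *Selp*, the gene of P-selectin, on which leukocytes roll, was found in 57.3% (50.7 to 63.8) of Stab2-high and 24.1% (20.8 to 27.7) of other cells. Its median was 0.0429 against 0, its highest value 3.98 against 3.13 and its log2 ratio 1.03. *Icam1* (-0.13) and the list median (-0.05) were near 0. *Plvap*, the protein of endothelial diaphragms, had a median of 1.26 against 0.450 and a log2 ratio of 0.96. *F8*, which encodes coagulation factor VIII, stood at 0.95.

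The remaining genes past 2-fold were *Trp53i11*, *Exoc3l2* and *Rasa4*. *Trp53i11* was found in 97% and 84.3% of cells, with a median of 2.29 against 1.20 and a log2 ratio of 1.21. *Exoc3l2* was the rarest of the leading genes in the other cells. It was found in 44.8% of Stab2-high cells (38.3 to 51.5) and in 44 of 610 other cells (7.21%, 5.29 to 9.56), at a mean of 1.41 against 0.112 reads per 10000 and a log2 ratio of 1.11. *Rasa4*, a GTPase-activating protein of Ras, was found in 52.2% and 15.7%, with a log2 ratio of 1.06. Exons of *Thbs1*, *Selp*, *Rasa4* and *Stab2* overlap genes on the other strand and those of *Ctsd* and *Rasa4* overlap genes on the same strand. The strand setting of the counting is not given, so reads of such pairs could not be told apart.

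**Figure D1:**
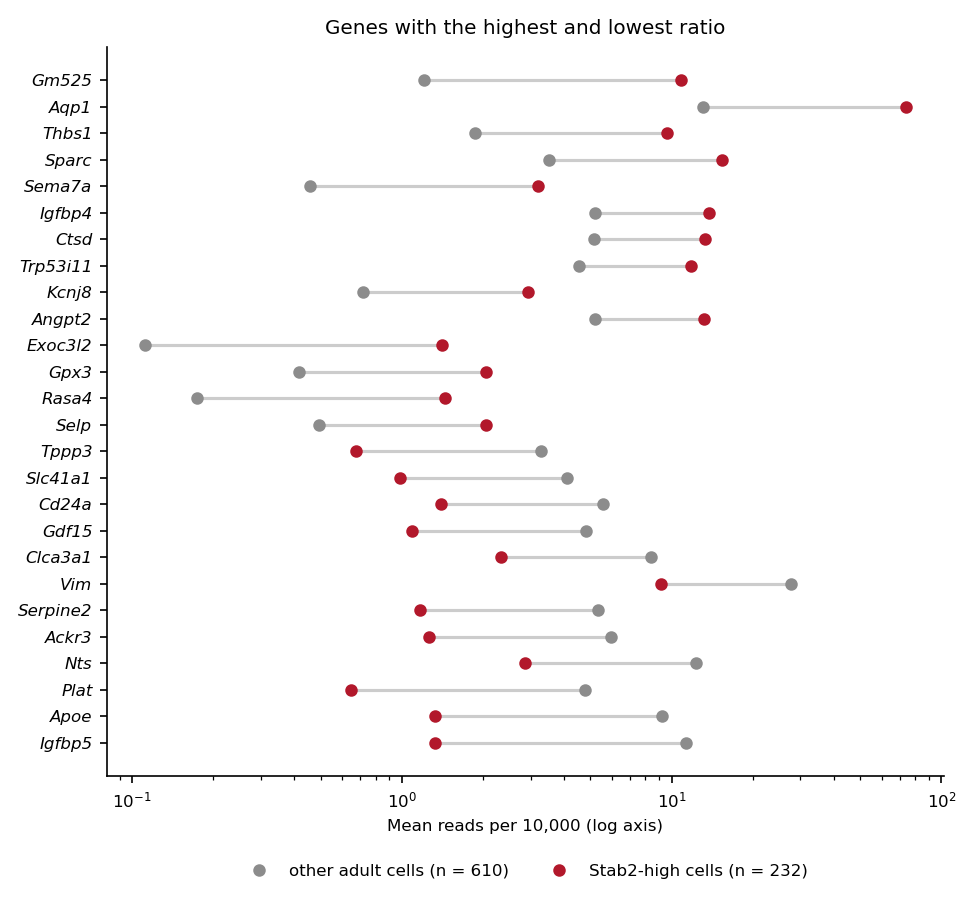
Mean reads per 10000 (log axis) of the 14 genes with the highest and the 12 with the lowest log2 ratio, in the Stab2-high cells (red) and 610 other adult cells (grey). Points are means over cells; *Gm525* stood at 10.8 against 1.21 and *Igfbp5* at 1.33 against 11.3.

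Lower genes were led by those of precollecting and collecting vessels. *Igfbp5*, another binding protein of insulin-like growth factors, had a median of 0.0339 in Stab2-high cells and 0.840 in the other cells. Its highest values were 4.26 and 4.96, and its means 1.33 and 11.3 reads per 10000, a log2 ratio of -2.40. It was above 1 in 9.05% of Stab2-high cells and in 48.5% of other cells. *Apoe*, the gene of apolipoprotein E, had a median of 0.0243 against 0.0895 and a log2 ratio of -2.13. The medians of *Apoe* lay close while its highest cells stood at 4.50 and 7.13, so a minority of other cells with high levels set its mean.

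Of 10 measured genes on the collecting and precollecting list, *Igfbp5*, *Apoe*, *Ackr3* (-1.62), *Clca3a1* (-1.49) and *Cav1* (-1.18) were past 2-fold lower and *Igfbp4* past 2-fold higher. The list median was -0.84. *Ackr3* encodes a scavenging receptor of CXCL12 and adrenomedullin, and *Cav1* the coat protein of caveolae. *Foxp2*, a transcription factor of collecting LECs, lay at -0.46. This list and the choice of cells are not independent, since *Cldn11* and *Fndc1* were required to be low and the comparison holds the collecting cells. The list was also low against the Fndc1-high capillary cells described below, with a median of -1.16. There 5 of 10 measured genes were past 2-fold lower and 1 higher, against 0.829% and 0.581% of all genes.

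Further lower genes encode a protease, an inhibitor and cues. *Plat*, tissue-type plasminogen activator, had a median of 0.0166 against 0.170 and a log2 ratio of -1.80. *Serpine2*, an inhibitor of thrombin and plasminogen activators, had a median of 0.0231 against 1.5 and a log2 ratio of -1.54. It was above 1 in 17.7% of Stab2-high and 64.4% of other cells. *Nts*, the precursor of neurotensin, had a median of 0.0438 against 0.839 and a log2 ratio of -1.79. On the list of coagulation and fibrinolysis 2 of 13 measured genes were past 2-fold lower and none past 2-fold higher, with a median of -0.22. Over all genes 0.587% were past 2-fold lower and 0.242% higher. On this list 5 genes had a ratio above 0, led by *F8* (0.95) and *Plau* (0.83), another plasminogen activator.

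*Vim*, which encodes the intermediate filament protein vimentin, was found in nearly every cell of both groups. Its median was 1.94 against 3.22 and its log2 ratio -1.50, so that its difference was again one of level. *Gdf15* (-1.47), a stress-induced cytokine, *Cd24a* (-1.45), a surface glycoprotein, *Slc41a1* (-1.36), a magnesium transporter, and *Tppp3* (-1.35), a tubulin-binding protein, completed the 12 lowest genes.

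Of the lists with no gene past 2-fold in either direction, those of MHC class I presentation (16 measured, median 0.16), interferon-stimulated genes (18, 0.13), Notch and BMP signalling (22, 0.13), endothelial junctions (16, 0.09), endothelial transcription factors (43, 0.07), valve genes (12, -0.04), glycolysis (14, -0.10) and immediate early and dissociation genes (61, 0.02) lay near the median of all genes. *Cldn11*, a valve gene, is not among those measured, as it was part of the rule. *H2-Q6* (0.70), an MHC class Ib gene, was the highest on the MHC class I list and *Pkm* (0.96), pyruvate kinase, on that of glycolysis. *Id1* (0.57), an early target of BMP signalling, was the highest of the transcription factors, and *Jag2* (0.63), a Notch ligand, of the Notch and BMP list. The list of lymphatic identity had 1 of 21 genes past 2-fold, *Nts*, and a median of 0.03. The lists of lipid handling (12 measured) and of heat shock and stress (19) each had 1 gene past 2-fold, *Apoe* and *Gdf15*, both lower. Growth factors and neural-type cues (26) had *Sema7a* higher and *Nts* lower, and chemokines and their receptors (4) had *Ackr3* lower. Cell cycle genes (3) had none past 2-fold and MHC class II genes passed no filter.

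**Figure D2:**
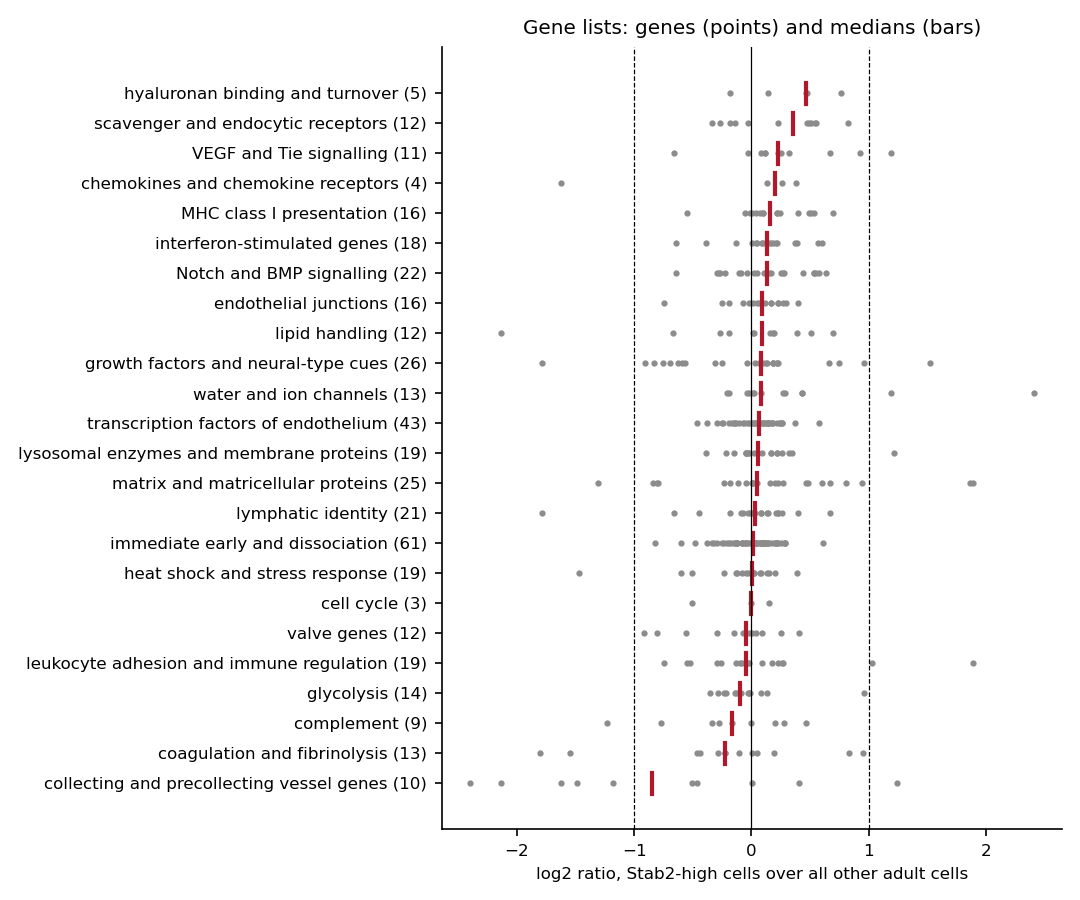
Log2 ratio of Stab2-high over all other adult cells for the genes of 24 lists, with the number of measured genes in brackets. Points are genes, red bars are list medians and dashed lines mark 2-fold; the collecting and precollecting list has the lowest median, at -0.84.

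Most but not all of the 2-fold differences were also seen within cells of either sex. *Xist* without Y chromosome reads was found in 57 Stab2-high cells (24.6%, against 18.2% of other cells), and Y chromosome genes without *Xist* in 130 Stab2-high and 350 other cells. In *Xist* cells the log2 ratio was 2.65 for *Gm525*, 2.17 for *Aqp1*, 1.67 for *Sema7a* and -1.47 for *Igfbp5*. In Y cells it was 2.34, 2.46, 1.43 and -2.67. The direction of all 4 was thus the same, and *Igfbp5* differed less in *Xist* cells. Of the 14 higher and 34 lower genes, 11 and 20 were also past 2-fold in *Xist* cells, and 13 and 30 in Y cells. *Selp* (0.71), *Rasa4* (0.88) and *Gdf15* (-0.43) were among those under 2-fold in *Xist* cells. Both signals were found in 11 Stab2-high and 41 other wells, which can hold reads of more than 1 mouse. Without these wells 14 genes were higher and 33 lower, of which 14 and 33 were among those above.

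The leading genes are given next by bins of the *Stab2* value. They were chosen by their difference across the *Stab2* threshold in the same cells, so these levels are a description and no further evidence. Among cells with *Fndc1* and *Cldn11* at or under 1, the mean *Aqp1* value was 0.939 ± 1.45 (SD over cells) with no *Stab2* read and 2.47 ± 1.81 (36 cells) with *Stab2* from 0.5 to 1. It was 2.92 ± 1.55 (46 cells) from 1 to 1.5 and 4.30 ± 1.20 (32 cells) above 3. *Gm525* ran from 0.303 ± 0.645 with no *Stab2* read to 0.691 ± 0.995 at 0.5 to 1 and 2.39 ± 1.28 above 3. *Aqp1* was thus already well above its lowest level just under the threshold, while *Gm525* and *Sema7a* were higher mainly above it. *Igfbp5* went the other way, from 1.48 ± 1.46 with no *Stab2* read to 0.189 ± 0.343 above 3.

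*Lyve1* peaked in the middle of the *Stab2* range. Its mean was 1.05 ± 1.32 with no *Stab2* read, 2.03 ± 1.46 from 1 to 1.5, 2.04 ± 1.27 from 1.5 to 2, 1.39 ± 1.38 from 2 to 3 and 0.496 ± 0.739 above 3. *Plvap* in contrast rose from 0.949 ± 0.571 at 1 to 1.5 to 1.62 ± 0.807 above 3. Across the Stab2-high cells, Spearman's rho with *Stab2* was 0.41 for *Aqp1*, 0.36 for *Plvap*, 0.32 for *Gm525*, 0.30 for *Sema7a* and -0.33 for *Lyve1*. These cells share 1 pooled sample and the correlations are descriptions only. The median number of reads was 195616 in cells with *Stab2* above 3 and 554910 in those from 1 to 1.5, and the part of depth in these levels was not tested.

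**Figure D3:**
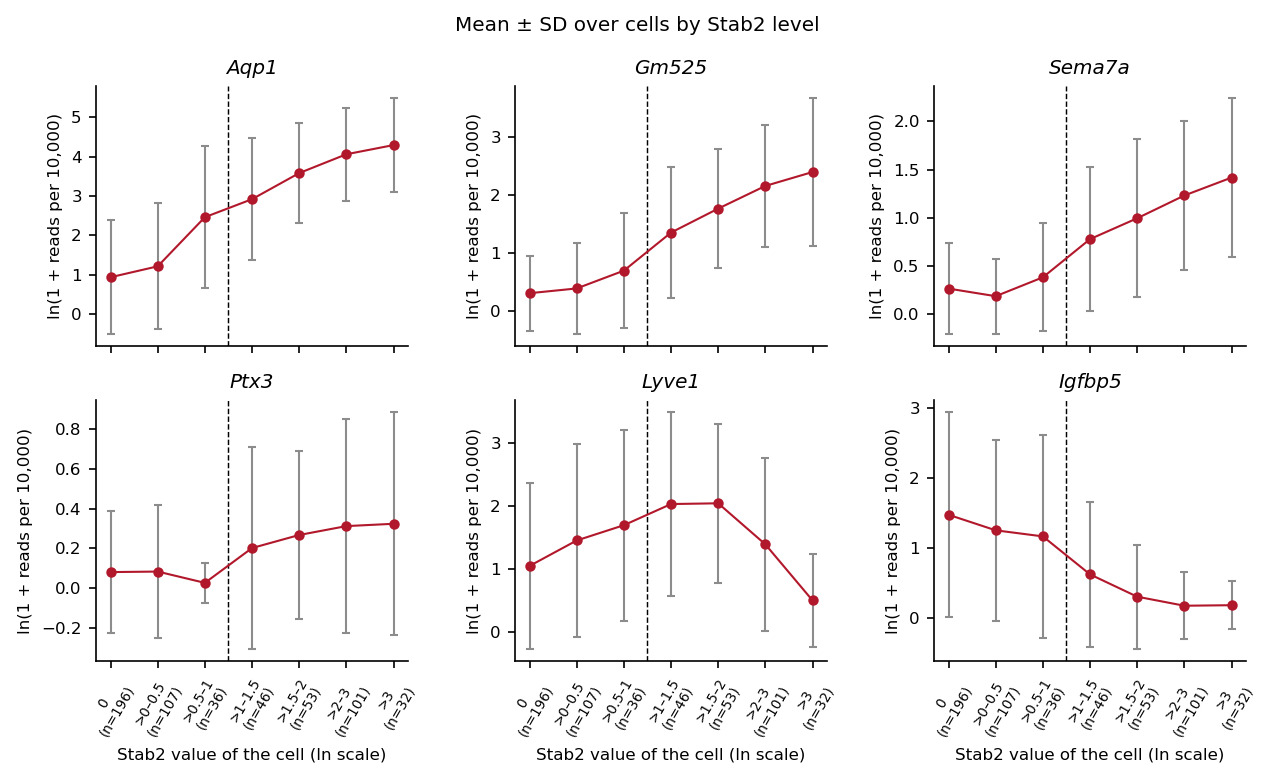
Mean ± SD over cells of 6 genes (natural log of 1 plus reads per 10000) by the *Stab2* value of the cell, among cells with *Fndc1* and *Cldn11* at or under 1, with the number of cells in each bin. The dashed line marks the threshold of 1; *Aqp1* reached 4.30 and *Lyve1* fell to 0.496 in the highest bin.

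Stab2-high cells were set beside 2 other groups of cells with capillary genes. Fndc1-high cells (13.2% of adult cells, with *Fndc1* above 1 and the other genes of the rule at or under 1) had *Lyve1* above 1 in 71.2%, and the Lyve1 cells without subtype genes (140 cells with *Lyve1* above 1, *Stab2*, *Fndc1* and *Cldn11* at or under 1) had it by definition. Against Fndc1-high cells, 35 of 6028 genes (0.581%) were at least 2-fold higher in Stab2-high cells and 50 (0.829%) at least 2-fold lower. The medians were 4.18 in Stab2-high, 0.166 in Fndc1-high and 2.33 in Lyve1 cells for *Aqp1*. *Gm525* had medians of 2.08, 0 and 0.0523, and *Sparc* of 2.56, 0.0415 and 0.991. For all 3 genes the Lyve1 cells lay between the other groups. *Aqp1* above 3 together with *Gm525* above 1 was found in 3 Fndc1-high cells (2.7%, 0.561 to 7.70) and in 32 of 140 Lyve1 cells (22.9%, 16.2 to 30.7).

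The genes furthest below Fndc1-high cells were *Tppp3* (log2 ratio -2.82), *Igfbp5* (-2.81), *Ucp2* (-2.53), an uncoupling protein of mitochondria, *Ackr3* (-2.44), *Tgfbi* (-2.06) and *Serpine2* (-2.01). *Tppp3* had a mean of 0.675 reads per 10000 in Stab2-high, 10.8 in Fndc1-high and 1.86 in Lyve1 cells. *Ucp2* stood at 0.606, 8.26 and 2.30. *Reln* (12.5, 15.1 and 14.5) and *Ccl21a* (2.60, 2.85 and 2.99) were at like levels in the 3 groups. Median reads per cell were 358024, 524161 and 219733.

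**Figure D4:**
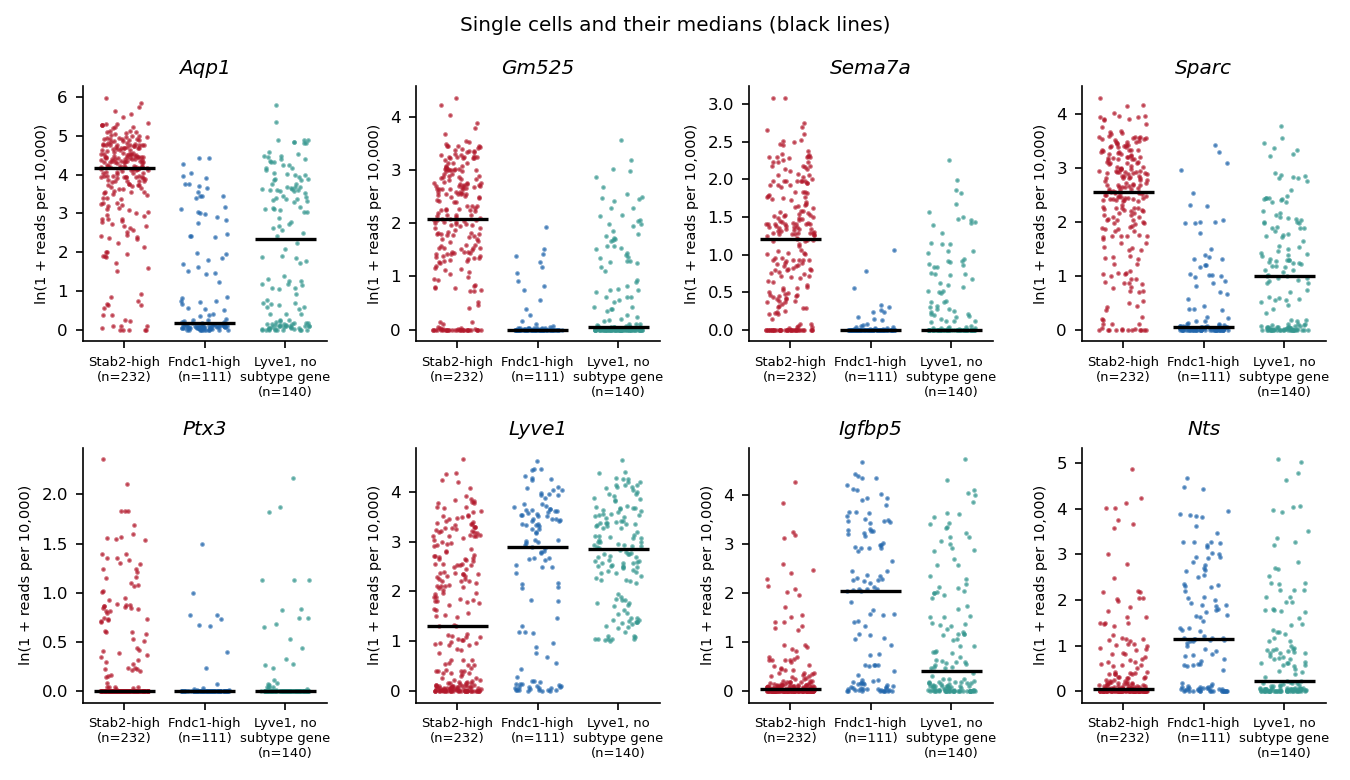
Values of 8 genes (natural log of 1 plus reads per 10000) in single Stab2-high, Fndc1-high and Lyve1 cells without subtype genes. Points are cells and black lines medians; the *Aqp1* medians are 4.18, 0.166 and 2.33.

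*Ptx3* reads were found in a minority of Stab2-high cells. They were present in 79 cells (34.1%, 28 to 40.5) and in 86 of 610 other cells (14.1%, 11.4 to 17.1). After thinning the shares were 25.8% and 6.62%. *Ptx3* was above 1 in 28 Stab2-high (12.1%, 8.17 to 17) and 14 other cells (2.30%, 1.26 to 3.82). In the 79 cells with reads its value lay between 0.0200 and 2.36, with a median of 0.811. The mean over all cells was 0.574 against 0.141 reads per 10000, a log2 ratio of 0.46 with the pseudocount of 1. With a pseudocount of 0.1 the ratio was 1.48 and past 2-fold, so the call depends on this choice. *Ptx3* and *Lyve1* reads were found together in 71 Stab2-high cells (30.6%, 24.7 to 37).

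Cells with *Ptx3* reads were sequenced more deeply than those without, with medians of 453928 and 207318 reads. A cell with few reads can hold *Ptx3* transcripts that were missed. Between these cells, none of 6110 genes (0%) was at least 2-fold higher with *Ptx3* reads and 2 (0.0327%) were at least 2-fold lower. These were *Igfbp5* (log2 ratio -1.24) and *Dusp1* (-1.11), a phosphatase of MAP kinases. The means of *Igfbp5* were 0.229 and 1.90 reads per 10000 while its medians were 0.0403 and 0.0321, so a few cells without *Ptx3* reads carried the difference. The *Igfbp5* ratio was under 2-fold after thinning (-0.68) and among cells with at least 100000 reads (-0.78).

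*Aqp1* and *Gm525* were present on both sides of the *Ptx3* split. *Aqp1* had a median of 4.36 with and 4.03 without *Ptx3* reads, and *Gm525* of 2.27 and 1.97. *Mrc1* (log2 ratio 0.59), *Lyve1* (0.57), *Kcnj8* (0.55) and *Sparc* (0.55) were higher with *Ptx3* reads, all under 2-fold. The highest ratios were those of *Lars2* (0.76), a mitochondrial leucyl-tRNA synthetase, *Thrsp* (0.71), a regulator of lipid synthesis, *Emid1* (0.70), *Snapc5* (0.69), *Gng11* (0.63), *Rnase4* (0.61), *Ccl21a* (0.60) and *Gnb4* (0.59). Both *Gng11* and *Gnb4* encode G protein subunits. The *Ccl21a* mean was 3.64 against 2.07 reads per 10000. Leaving out immediate early and dissociation genes, the lowest besides *Igfbp5* were *Gm17056* (-0.87), *Icam1* (-0.84), *Clca3a1* (-0.78), *Serpine2* (-0.76), *Flnc* (-0.74), *Cdkn1a* (-0.71) and *Nudt4* (-0.68).

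Immediate early genes were lower with *Ptx3* reads in Stab2-high cells. Of 62 measured genes on the list 56 had a ratio below 0, with a median of -0.42, and 1, *Dusp1*, was past 2-fold. Over all genes, 2805 of 6110 had a ratio below 0, with a median of 0.01. *Fos* had a median of 3.34 with and 4.41 without *Ptx3* reads, *Jun* of 1.92 and 2.73, and *Junb* of 2.36 and 3.12. In the other adult cells, 35 of 62 genes were below 0 with *Ptx3* reads, with a median of -0.02. The mean over the list had a median of 1.06 in the 79 cells with and 1.29 in the cells without *Ptx3* reads, and of 1.29 and 1.24 in other cells. After thinning it was 0.919 and 1.29 in Stab2-high cells. Among cells with at least 100000 reads it was 1.11 (62 cells) and 1.32 (94 cells), so the order was the same at greater depth. The part of the tissue digestion in this was not tested.

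**Figure D5:**
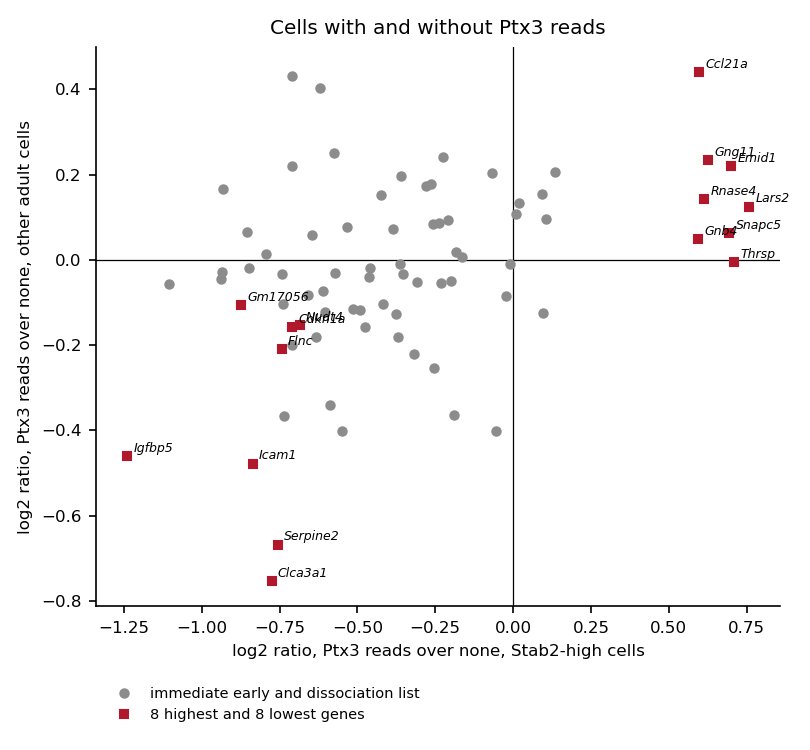
Log2 ratio of cells with over cells without *Ptx3* reads, in Stab2-high cells (horizontal) and in the other adult cells (vertical), for the immediate early and dissociation list (grey) and the 8 highest and 8 lowest genes named in Stab2-high cells (red). Most grey points lie left of 0 (56 of 62 genes measured in Stab2-high cells) and about 0 on the vertical axis (median -0.02).

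Within the Stab2-high cells, immediate early genes, *Aqp1* and *Lyve1* varied most. Relative to genes of like mean level the SD was farthest above the running median for *Fos*, *Cyr61*, *Socs3*, *Atf3*, *Aqp1*, *Junb*, *Jun* and *Lyve1*. *Fos*, a component of AP-1, ran from 0.104 to 6.18 with a mean of 3.60 ± 1.71. *Aqp1* had a lowest value of 0 and quartiles of 3.26 and 4.66. Its reads were found in 97.8% of Stab2-high cells, and its value was above 1 in 91.4%.

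A split of the Stab2-high cells at a *Lyve1* value of 1, chosen after the values were seen, put 54.3% of them on the higher side. Of 5907 genes, 3 (0.0508%) were at least 2-fold higher in the *Lyve1* cells and 2 (0.0339%) at least 2-fold lower. The higher genes were *Adgrg3* (log2 ratio 1.26), an adhesion G protein-coupled receptor, *Nts* (1.24) and *Tnc* (1.01). Among the lower ones was *Rasd1* (-1.06), a Ras-related protein induced by glucocorticoids. *Slco2a1* (-0.96), a prostaglandin transporter, *Bmp4* (-0.90) and *Clu* (-0.88) lay just under 2-fold. *Stab2* itself had means of 7.92 and 13.2 reads per 10000 in the *Lyve1* and the other cells, *Plvap* of 2.62 and 4.61, and *Selp* of 1.41 and 2.82. *Aqp1* had means of 66 and 82.9 and *Gm525* of 10 and 11.8, so both were high on either side. *Ptx3* reads were found in 37.3% (28.9 to 46.4) of the *Lyve1* cells and 30.2% (21.7 to 39.9) of the others, with overlapping intervals. Median reads were 448004 and 229873.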

How the data were processed

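Adult nasopharyngeal LECs of pooled mice were measured by Smart-seq3. Per the methods, the authors used STAR for alignment to mm10 and featureCounts for reads per gene, kept cells with at least 2000 genes and at most 10% mitochondrial reads, and normalized with Seurat 4.1.0. The deposited values are natural logs of reads per 10000 plus 1 (the methods name log2), since their exponentials minus 1 summed to 10000 in every cell. Strand and annotation are not given in the sources used here. Reads were counted, not unique molecules as far as stated, and no doublet caller was run.

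The rule, the gene lists and the markers were chosen with earlier results of these data known. Log2 ratios used a pseudocount of 1 read per 10000. Named genes were the 7 markers, the 14 highest and 12 lowest ratios without the genes of the rule, mitochondrial, ribosomal and dissociation genes, list genes past 2-fold or else the 2 largest of each list, the 8 highest and lowest of the *Ptx3* split and the 8 most variable genes. Others named with values were chosen after these were seen. Coordinates are from GENCODE M21 (96.1% of 23168 symbols matched). Ratios were computed in Python 3.11.15 (pandas 2.3.3) and exact intervals in SciPy 1.17.1. The calculation was also run on simulated reads, with each gene drawn independently. The outcome of that run is not given here, and it is no support for the 2-fold calls. Results for 2 genes are not reported here.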

Additional observations from a re-analysis of the deposited data

How the results depend on the processing

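No paired analysis was possible because the adult cells are 1 sample and the results come from no test. Leaving out plates or mice could not be done. Stab2-high cells were 15.8% of all cells with *Stab2* above 2, and the share with *Ptx3* reads was 23.3% above a value of 0.5, 12.1% above 1 and 25.8% after thinning. With a pseudocount of 0.1, 69 genes (1.19%) were higher and 2.04% of genes lower in Stab2-high cells. By the difference of mean log values 17 (0.293%) were lower, and with *Stab2* above 0.5, 21 (0.365%). The difference of mean log values gave 13 higher genes (0.224%), of which 9 were among the 14 of the main comparison. Between cells with and without *Ptx3* reads, a pseudocount of 0.1 gave 35 higher (0.573%) and 39 lower genes (0.638%), and a *Ptx3* value above 0.5 gave 1 higher gene (0.0168%). Cells with at least 100000 reads gave 5 lower genes (0.0749%). Leaving out the 25% of cells with most dissociation genes, chosen after seeing the data, gave 1 (0.0165%). With at least 100000 reads and without those 25% of cells, 1 of the 2 lower genes of the main *Ptx3* split was included each time. With the pseudocount of 0.1 and with *Ptx3* above 0.5, both were included. Thinning, with cells split anew by their thinned reads, gave 3 lower of 4009 genes, and 1 of these was among the 2. Other counts were within 1.5 times of the main ones, but the genes were not all the same. With other cells limited to *Lyve1* above 1, 11 genes (0.192%) were higher and 25 (0.437%) lower. Of these, 8 and 21 were among the 14 and 34 of the main comparison. *Igfbp4*, *Angpt2*, *Kcnj8*, *Gpx3*, *Rasa4* and *Selp* then stood between 0.73 and 0.96. *Plat* (-0.89), *Clca3a1* (-0.82), *Gdf15* (-0.53) and *Slc41a1* (-0.47) were likewise under 2-fold. All 29 genes compared kept their direction in the 13 alternatives, and 30 of their values moved by more than 1.5-fold. Among the 16 genes of the *Ptx3* split, 4 values in 5 alternatives did so. The genes of both sets were extremes of the same cells or markers, so a kept direction is no independent support. With 1 pooled sample, differences between mice could not be seen, and a low gene can be missed in shallow cells.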
